A study of Mus musculus with 5 samples.

Results

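The genes described here encode laminins and other core proteins of the basement membrane, the thin sheet of matrix on which many cells rest. They were chosen by symbol: 3 laminin alpha chain genes (Lama2, Lama4 and Lama5), 2 beta chain genes (Lamb1 and Lamb2), 1 gamma chain gene (Lamc1), the nidogen genes Nid1 and Nid2, and the genes of perlecan (Hspg2) and agrin (Agrn). These 10 genes are among 55401 gene IDs in the deposited table, and 9 of the 10 had a mean of at least 1 FPKM (fragments of a gene per exon length and library size) over all libraries. The exception was Lama2, whose mean was 0.667 FPKM. The series holds RNA-seq of wild-type mouse bone marrow mesenchymal stem cells, adherent stromal cells of the marrow grown in culture. One library each came from cells under continuous negative air pressure of -80, -120, -160 or -200 mmHg, held for 48 h by a vacuum pump, and 1 library from a control labelled 0 mmHg. All cells had been grown for 72 h, and the labels name no strain, age or sex. With 1 library per condition, differences have no replicate check, and intervals given below cover the counting of reads only.

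A laminin is a trimer of 1 alpha, 1 beta and 1 gamma chain, and the alpha chain carries the main binding sites for cell receptors. Nidogens bind the gamma 1 chain and link laminin to collagen IV, and perlecan and agrin are large proteoglycans whose heparan sulfate chains hold growth factors. In bone marrow, laminins with the alpha 4 and alpha 5 chains are known from the walls of blood vessels, and stromal cells deposit basement membrane proteins in culture.

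The control library differed from the others in more than pressure. Each pressure library held 0 reads of Uty, Kdm5d, Ddx3y and Eif2s3y, which lie on the Y chromosome, against 2493 reads in the control. In any comparison with it, pressure and the source of the cells cannot be told apart. Library totals lay between 16600622 and 18056998 reads under pressure and at 18398911 reads in the control. Over the 12113 genes averaging 1 FPKM or more, the median difference was 0.14 to 0.16 above the control on the log2(FPKM + 1) scale. That scale is used for all log2 differences and understates those of low genes. The size rule used below asks for a difference of at least 1 on this scale. This is a factor of 2 in FPKM + 1, and a larger factor in FPKM for low genes. In these bulk cultures fewer cells of a type and less RNA per cell cannot be told apart.

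Among the alpha chain genes, Lama4 was lower under every pressure and Lama5 stood at a low level throughout. Lama4 (chromosome 10, positions 38965515 to 39110188 of GRCm38) stood at 23.9 FPKM in the control at 0 mmHg, then 3.91 at -80, 3.80 at -120, 3.75 at -160 and 3.69 FPKM at -200 mmHg. The pressure libraries lay close together and far below the control. The log2 difference was -2.34 to -2.41, and the control level was 6.11 to 6.48 times that under pressure. At -200 mmHg 804 reads were counted, against 5311 in the control, a ratio per library total of 0.154 (95% Clopper-Pearson interval 0.143 to 0.166). In the order of levels over the 12113 genes, where rank 1 is the highest, Lama4 held ranks 8382 to 8567 under pressure and rank 2315 in the control.

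Lama5 (chromosome 2, positions 180176373 to 180225859) encodes the alpha 5 chain, a ligand of integrins on many epithelial and endothelial cells. It stood at 0.745 FPKM in the control at 0 mmHg, then 2.06 at -80, 2.01 at -120, 1.57 at -160 and 1.43 FPKM at -200 mmHg. All pressure libraries were above the control, with log2 differences of 0.48 to 0.81 that did not pass the size rule. The ratio of reads was 2.76 at -80 mmHg (interval 2.29 to 3.35) and 1.93 at -200 mmHg (interval 1.58 to 2.35), on 390 and 295 reads against 156 in the control. With a pseudocount of 0.1 FPKM in place of 1 its log2 difference became 0.86 to 1.35 and passed the rule at -80 and -120 mmHg. Lama2 (chromosome 10, positions 26980036 to 27619758), the alpha chain of muscle and nerve basement membranes, lay under the expression limit. It had 0.575 to 0.782 FPKM under pressure and 0.507 FPKM in the control, on 159 to 225 and 155 reads.

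The beta and gamma chain genes differed far less from the control than Lama4 did. Lamc1 (chromosome 1, positions 153218922 to 153332786), the gamma chain shared by most laminins, stood at 25.4 FPKM in the control at 0 mmHg, then 23.9 at -80, 21.9 at -120, 19.6 at -160 and 17.7 FPKM at -200 mmHg. Lamb1 (chromosome 12, positions 31265234 to 31329644) stood at 34.1 FPKM in the control at 0 mmHg, then 29.6 at -80, 26.4 at -120, 25.2 at -160 and 22.9 FPKM at -200 mmHg. Both were lowest in the library at -200 mmHg, and neither passed the size rule at any pressure. Their log2 differences were -0.08 to -0.50 for Lamc1 and -0.20 to -0.56 for Lamb1. Lamb2 (chromosome 9, positions 108479736 to 108490530), the beta chain typical of muscle, kidney and vessel basement membranes, stood at 31.4 FPKM in the control at 0 mmHg, then 33.1 at -80, 34.6 at -120, 29.8 at -160 and 29.2 FPKM at -200 mmHg. Its log2 differences of -0.10 to 0.13 held both signs, and all 4 were below 0 after scaling by the trimmed mean of log ratios.

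**Figure D1:**
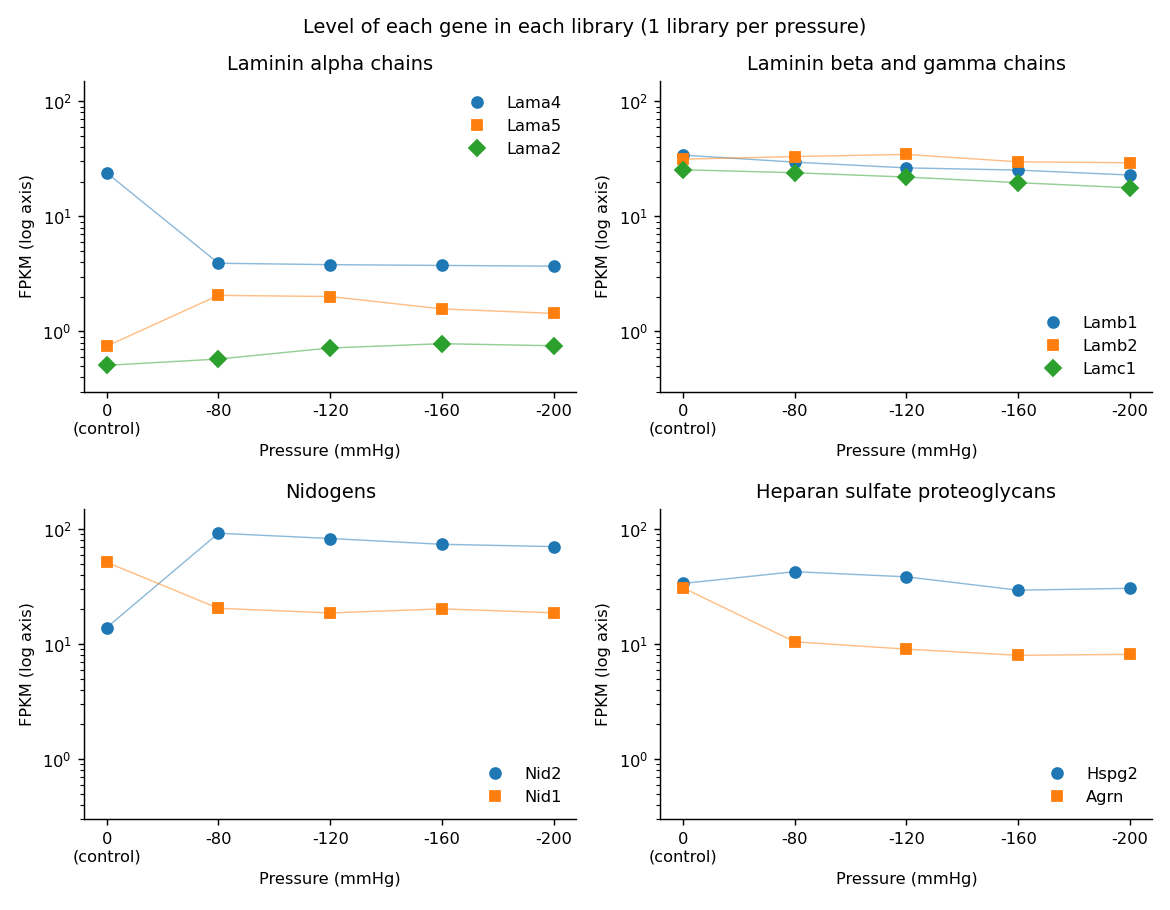
Level of each of the 10 genes in FPKM on a log axis, against pressure in mmHg with the control at 0 mmHg on the left; each point is 1 library and thin lines join points of 1 gene. Lama4, Nid1 and Agrn stand lower in all 4 pressure libraries than in the control, Nid2 stands higher, and the beta and gamma chain genes lie between 17.7 and 34.6 FPKM in every library.

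The nidogen genes differed in opposite directions. Nid2 (chromosome 14, positions 19751265 to 19811787) stood at 13.9 FPKM in the control at 0 mmHg, then 91.9 at -80, 82.6 at -120, 73.6 at -160 and 70.3 FPKM at -200 mmHg. It was the most abundant of the 10 genes in each pressure library, with ranks of 463 to 668 under pressure and 3658 in the control. The log2 difference was 2.64 at -80 mmHg and 2.26 at -200 mmHg. The ratio of reads was 6.62 at -80 mmHg (interval 6.24 to 7.02) and 5.06 at -200 mmHg (interval 4.77 to 5.38). Of the exons of Nid2, 437 nt (8.45%) overlap those of Rtraf on the other strand, and Rtraf had 109 to 128 FPKM under pressure and 98.9 FPKM in the control. The strand setting of the counting is not given, so reads in that stretch may be shared. Nid2 had 1322 reads in the control, and how many of them came from that stretch was not tested.

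Nid1 (chromosome 13, positions 13437551 to 13512269) stood at 51.4 FPKM in the control at 0 mmHg, then 20.5 at -80, 18.6 at -120, 20.2 at -160 and 18.7 FPKM at -200 mmHg. All pressure libraries lay below the control, with log2 differences of -1.29 to -1.42. Within a library, Nid2 had 3.64 to 4.49 times the FPKM of Nid1 under pressure, against 0.270 times in the control (interval 0.254 to 0.286). This ratio does not depend on a scaling factor shared by all genes of a library, but quantile normalization can change it. The sum of both nidogens was 89.0 to 112 FPKM under pressure and 65.3 FPKM in the control.

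The proteoglycan genes also parted. Agrn (chromosome 4, positions 156165290 to 156197488), whose product gathers acetylcholine receptors at the nerve-muscle synapse and is made by many other cells, stood at 30.9 FPKM in the control at 0 mmHg, then 10.5 at -80, 9.04 at -120, 7.98 at -160 and 8.14 FPKM at -200 mmHg. Its log2 difference was -1.48 to -1.83, and the control level was 2.95 to 3.87 times that under pressure. Hspg2 (chromosome 4, positions 137468769 to 137570630) encodes perlecan, a proteoglycan of nearly all basement membranes and of cartilage. It stood at 33.6 FPKM in the control at 0 mmHg, then 42.6 at -80, 38.4 at -120, 29.4 at -160 and 30.5 FPKM at -200 mmHg. Hspg2 was above the control at -80 and -120 mmHg and below it at -160 and -200 mmHg, and its log2 differences of -0.19 to 0.33 did not pass the size rule. With the libraries centred on long genes, a setting chosen after the data were seen, all 4 were below 0. Agrn had 0.235 to 0.272 times the FPKM of Hspg2 under pressure, against 0.919 times in the control (interval 0.888 to 0.951).

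The start regions of Nid1 and Agrn, both lower at every pressure, and of Hspg2, which passed the size rule at no pressure, are shown from RefSeq (build GRCm38.p6). RefSeq windows of 250 bases before to 50 after a gene's start were at hand for 7 of the 10 genes. Agrn had 2 such windows, and that nearest the annotated start of the gene is shown. The windows are chr13:13437352-13437651 on the plus strand for Nid1, chr4:156197439-156197738 on the minus strand for Agrn, and chr4:137468553-137468852 on the plus strand for Hspg2. Capitals mark matches, on either strand, to the GC box (GGGCGG), the CCAAT box (its name is its letters), the TATA box (TATAAA), the AP-1 site (TGANTCA) or the TEAD core (GGAATG).
Nid1: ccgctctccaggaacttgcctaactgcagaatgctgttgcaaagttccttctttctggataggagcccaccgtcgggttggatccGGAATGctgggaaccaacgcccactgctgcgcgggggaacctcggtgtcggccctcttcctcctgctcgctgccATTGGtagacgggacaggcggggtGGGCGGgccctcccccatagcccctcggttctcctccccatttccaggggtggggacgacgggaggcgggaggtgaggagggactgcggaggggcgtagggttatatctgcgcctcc
Agrn: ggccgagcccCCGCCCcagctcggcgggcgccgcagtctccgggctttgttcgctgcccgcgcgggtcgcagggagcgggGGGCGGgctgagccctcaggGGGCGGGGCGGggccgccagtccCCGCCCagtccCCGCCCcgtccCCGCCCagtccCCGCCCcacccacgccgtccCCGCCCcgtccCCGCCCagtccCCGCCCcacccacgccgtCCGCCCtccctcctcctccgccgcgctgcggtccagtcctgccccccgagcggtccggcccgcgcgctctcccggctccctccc
Hspg2: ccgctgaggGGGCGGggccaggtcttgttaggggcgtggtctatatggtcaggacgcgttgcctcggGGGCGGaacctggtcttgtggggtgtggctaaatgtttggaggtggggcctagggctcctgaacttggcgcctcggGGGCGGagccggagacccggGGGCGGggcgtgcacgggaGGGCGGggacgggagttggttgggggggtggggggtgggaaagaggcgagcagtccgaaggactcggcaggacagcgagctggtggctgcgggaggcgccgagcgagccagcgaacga
The Agrn window, 83.3% G or C, holds 12 matches to the GC box, some of them overlapping, and the Hspg2 window, 70.3% G or C, holds 5. The Nid1 window, 64.7% G or C, holds 1 GC box, 1 CCAAT match and 1 TEAD core match. The TATA box and the AP-1 site have 0 matches in these windows. Of all 32851 windows 35.7% hold a GC box, 37.4% a CCAAT box, 13.6% a TATA box, 7.81% an AP-1 site and 14.7% a TEAD core, and their median G or C content is 52.7%. These matches describe letters in a window and are not evidence of binding.

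Of the 9 measured genes, 1 was higher (Nid2) and 3 were lower (Lama4, Nid1 and Agrn) at each pressure, and the other 5 passed the size rule at no pressure. Of all 12113 genes, 10.7% were higher and 6.89% lower at -80 mmHg. The shares were 8.85% higher and 6.45% lower for -120 mmHg, 9.59% higher and 6.03% lower for -160 mmHg, and 9.1% higher and 6.38% lower for -200 mmHg. Past the rule in 1 direction at all 4 pressures were 6.49% of all genes on the higher side and 4.46% on the lower side, while 78.1% passed at no pressure. The median of the 9 genes was -0.08 at -80, -0.20 at -120, -0.36 at -160 and -0.50 at -200 mmHg, below the median of all genes each time. The 4 comparisons share the same control library, so they are not independent of one another.

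**Figure D2:**
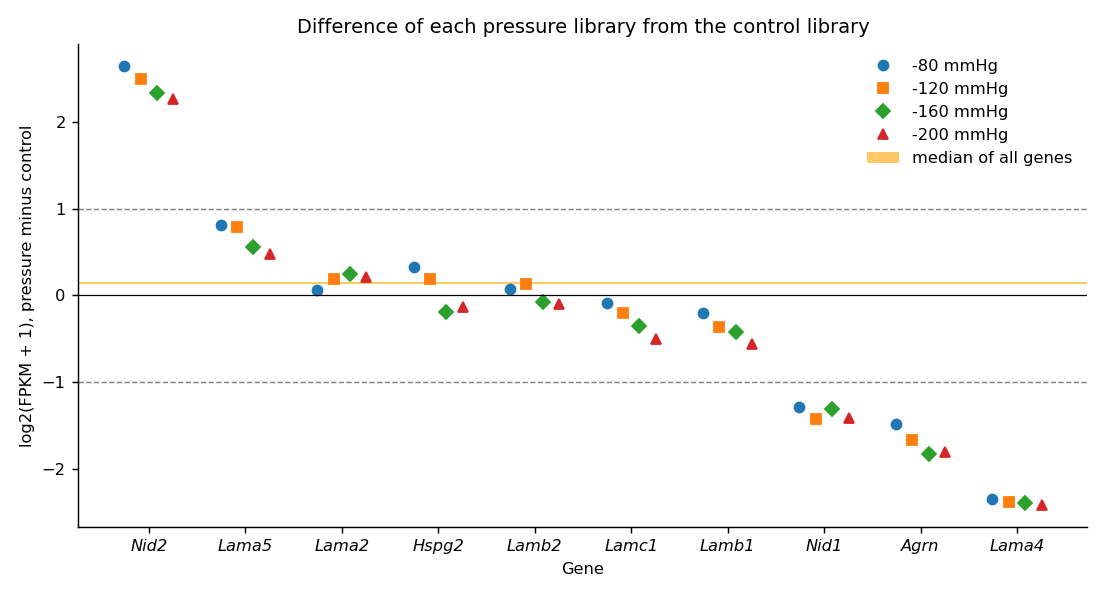
Difference in log2(FPKM + 1) of each pressure library from the control library for each gene, ordered by mean difference; dashed lines mark the size rule at -1 and 1, and the orange band spans the medians of all genes (0.14 to 0.16). Nid2 lies above 1 and Nid1, Agrn and Lama4 lie below -1 at every pressure, while the other genes lie between the dashed lines.

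Set against the gamma chain, the alpha chain sum differed from the control by a larger factor than the beta chain sum. The 5 mouse alpha chain genes (Lama1 to Lama5) summed to 0.282 to 0.340 times the FPKM of Lamc1 under pressure and to 1.01 times in the control. The beta chain genes Lamb1 and Lamb2 together stood at 2.62 to 2.94 times Lamc1 under pressure and at 2.58 times in the control. Lama4 alone was 0.164 to 0.208 times Lamc1 under pressure, against 0.941 times in the control (interval 0.903 to 0.981). Lama5 was 0.0799 to 0.0916 times Lamc1 under pressure and 0.0293 times in the control (interval 0.0248 to 0.0344).

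The makeup of the alpha chain transcripts also differed. Lama4 made up 57.4% to 61.4% of the alpha chain sum under pressure and 92.8% in the control. The share of Lama5 was 23.9% to 30.5% under pressure and 2.89% in the control, and that of Lama2 8.53% to 12.5% and 1.97%. Lama4 remained the most abundant alpha chain transcript in every library. Lamb1 stood at 0.763 to 0.894 times Lamb2 under pressure and at 1.09 times in the control (interval 1.04 to 1.13). These are ratios of RNA per exon length and say nothing of the trimers made.

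**Figure D3:**
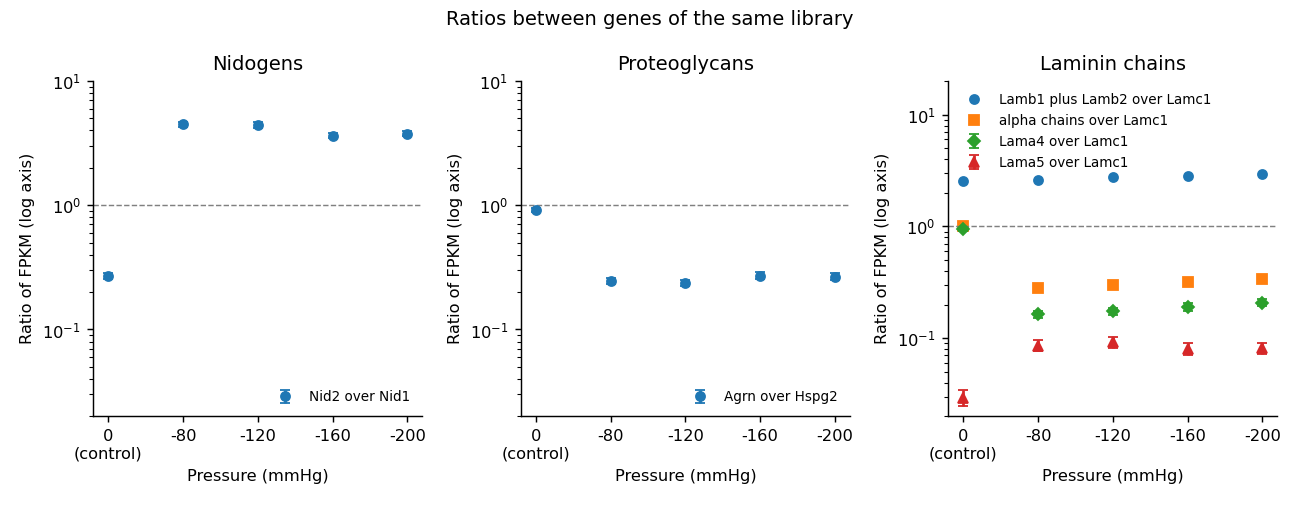
Ratio of FPKM between genes of the same library on a log axis, against pressure in mmHg with the control at 0 mmHg on the left; bars are 95% Clopper-Pearson intervals of the reads for pairs of single genes, and sums have none. Nid2 over Nid1 lies above 1 in the pressure libraries and at 0.270 in the control, Agrn over Hspg2 lies at 0.272 or less under pressure, and the alpha chain sum lies below 1 under pressure while the beta chain sum stays at 2.58 to 2.94 in all libraries.

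The pressure libraries were then compared with one another, which does not involve the control. Of the 9 measured genes 0 differed 2-fold between any pair of pressures, while 2.26% of all genes did. The largest ratio between a highest and a lowest pressure library was 1.45, for Hspg2 at -80 over -160 mmHg (interval 1.41 to 1.49). Below that size, the libraries had an order: all 9 measured genes were lower at -200 than at -80 mmHg, as were 52.5% of all genes and 67.1% of the 4661 genes with at least 5000 nt of exon. Each of the 10 genes has more than 5000 nt of exon. For 8 genes the counting interval of the ratio lay below 1, with levels at -200 mmHg 8.63% to 30.3% below those at -80 mmHg. Lama4 had an interval that included 1 (0.853 to 1.04), and Lama2, the gene under the expression limit, was higher at -200 than at -80 mmHg with a ratio of 1.30 (interval 1.06 to 1.61).

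Lamc1 at -200 mmHg was 0.739 times its level at -80 mmHg (interval 0.702 to 0.778), Lamb1 0.773 times (0.741 to 0.805), Nid2 0.765 times (0.740 to 0.791) and Hspg2 0.717 times (0.696 to 0.738). Lama4, Lama5, Lamb1, Lamc1 and Nid2 were lower at each step along the series, which makes 5 of 9 measured genes. The same was true of 6.19% of all genes and of 9.55% of genes with at least 5000 nt of exon. This count was chosen after its values were seen. No interval was computed for single steps, and that of Lama4 from -80 to -200 mmHg included 1 (0.853 to 1.04). The count was 3 of 9 under quantile normalization and 3 with the libraries centred on long genes. The median log2 difference of -200 over -80 mmHg was -0.33 for the 9 genes, -0.07 for genes with at least 5000 nt of exon and -0.01 for all genes. Collagen IV, the other network of the basement membrane, is given beside this with its 3 measured chain genes, a choice made after values were seen. Col4a1 stood at 55.2, 47.9, 39.6 and 37.3 FPKM at -80, -120, -160 and -200 mmHg in turn, and Col4a2 at 42.4, 39.0, 29.2 and 31.4 FPKM. Col4a5 stood at 24.3, 20.5, 21.1 and 20.6 FPKM over the same pressures, so only Col4a1 of these 3 was lower at each step. RNA quality and culture differences between these single libraries were not tested.

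**Figure D4:**
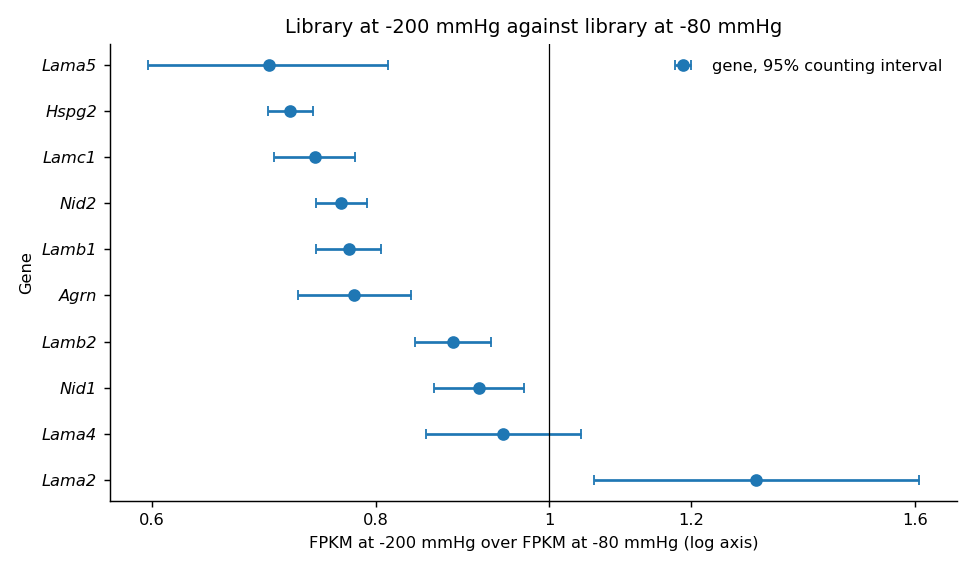
Level at -200 mmHg over the level at -80 mmHg for each gene on a log axis, with the 95% Clopper-Pearson interval of the reads as bars; the line at 1 marks equal levels. The bars of 8 genes lie below 1, that of Lama4 includes 1, and that of Lama2 lies above 1.

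Among the other basement membrane components listed, 3 genes passed the size rule at every pressure, each on the higher side. The laminin chain genes Lama1, Lama3, Lamb3 and Lamc3 were each under 1 FPKM on average and so were not among the measured genes. Of 8 basement membrane collagens 4 were measured, and Col4a5, a collagen IV chain, was higher at all 4 pressures (20.5 to 24.3 FPKM, against 8.39 FPKM in the control). With a pseudocount of 5 FPKM, or with the libraries centred on long genes, 0 of these collagens passed at all 4. Of 14 further components 6 were measured and 2 were higher at all 4 pressures. Fbln2, a fibulin that binds nidogen and laminin, had 602 to 694 FPKM under pressure and 223 FPKM in the control. Smoc2, a calcium-binding matrix protein related to Sparc, had 4.12 to 4.98 FPKM under pressure and 0.970 FPKM in the control. With a pseudocount of 5 FPKM, or a filter at 5 FPKM, 1 of these components was higher at all 4. Tinagl1, a secreted matrix protein named here after its values were seen, had 4.22 to 5.54 FPKM under pressure and 10.03 FPKM in the control. It passed the size rule on the lower side at -200 mmHg, and at all 4 pressures with a 1.5-fold threshold or with the libraries centred on long genes.

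Of 10 measured receptors of laminins, perlecan and agrin (14 listed), 0 passed the rule in 1 direction at all 4 pressures. The other count, of receptors past the rule at none, was 9. The list median was 0.44 to 0.55, against 0.14 to 0.16 for all genes. For genes with at least 5000 nt of exon it was 0.28 to 0.35. As background for the counts in these lists, 78.1% of the 12113 genes stayed within the rule at every pressure. The share past it each time was 6.49% on the higher side and 4.46% on the lower side. With a pseudocount of 0.1 FPKM, or with a 1.5-fold threshold, 2 receptor genes were higher at all 4. Of 10 measured genes for the sugar chain of dystroglycan, a laminin and agrin receptor, 0 passed at all 4 pressures and 7 at none. At all 4 pressures 1 of them was higher with a pseudocount of 0.1 FPKM and 3 with a 1.5-fold threshold. Of 16 measured genes for heparan sulfate, 2 were higher at all 4 pressures and 12 passed at none. They were Extl3, a glycosyltransferase of chain synthesis (20.6 to 27.3 FPKM under pressure, 9.78 FPKM in the control), and Hs6st1, a 6-O-sulfotransferase (8.09 to 11.7 FPKM under pressure, 3.31 FPKM in the control). Neither passed at all 4 with a pseudocount of 5 FPKM, after scaling by the trimmed mean of log ratios, under quantile normalization or with the libraries centred on long genes. The number of heparan sulfate genes higher at all 4 became 4 with a pseudocount of 0.1 FPKM and 5 with a 1.5-fold threshold.

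Of 9 measured proteases that can cut these proteins, 2 were lower at all 4 pressures and 0 higher, with a list median of -0.89 to -0.48. After scaling by the trimmed mean of log ratios, or with the libraries centred on long genes, 4 were lower at all 4 pressures. With a 1.5-fold threshold 4 were lower and 1 higher, and with a filter at 5 FPKM 1 was lower. Mmp2, a gelatinase that cuts collagen IV, had 2.43 to 3.33 FPKM under pressure and 398 FPKM in the control. Mmp9, the other gelatinase, had 2.52 to 2.79 FPKM under pressure and 12.0 FPKM in the control.

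Markers of cell types that make basement membranes were checked beside these results. Of 9 endothelial markers 1 was measured (Plvap, 2.70 to 4.18 FPKM under pressure and 0.711 FPKM in the control); the list summed to 3.56 to 5.65 FPKM under pressure and 1.15 FPKM in the control, with Emcn listed at 0 in every library and Pecam1 and Cdh5 at 0.116 FPKM or less. Of 9 pericyte and smooth muscle markers 3 were measured, with a sum of 363 to 403 FPKM under pressure and 353 FPKM in the control, nearly all of it from Acta2, a contractile actin that cultured stromal cells also express. Notch3 was higher at all 4 pressures (2.16 to 2.93 FPKM, against 0.558 FPKM in the control).

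Adipocyte markers summed to 3.95 to 4.37 FPKM under pressure and 24.5 FPKM in the control, with 2 of 6 measured. Fabp4 made up most of that control sum, with 1.53 to 1.95 FPKM under pressure and 21.9 FPKM in the control. Pparg, also measured, had 2.28 to 2.67 FPKM under pressure and 2.60 FPKM in the control. Adipoq, Lep and Cidec were listed at 0 in every library, and Plin1 at 0.0129 FPKM or less. Of 6 Schwann cell markers 1 was measured, Mbp, and they summed to 2.95 to 3.59 FPKM under pressure and 0.713 FPKM in the control, with Sox10 and Ngfr listed at 0. Of 8 macrophage markers 2 were measured, Lyz2 and Cd68, both higher at all 4 pressures; the list summed to 15.9 to 19.2 FPKM under pressure and 3.96 FPKM in the control, with C1qa, C1qb and C1qc listed at 0 and Ptprc at 0.00605 FPKM or less. Of 6 epithelial markers 0 were measured, and their sum was at most 0.154 FPKM in any library. Of 11 stromal markers 10 were measured, and the list summed to 2173 to 2429 FPKM under pressure and 3699 FPKM in the control, with a list median of -0.26 to -0.10. At all 4 pressures 1 was lower and 0 higher. The lower one was Ly6a, a surface protein of mouse stem and stromal cells (622 to 828 FPKM under pressure and 1740.5 FPKM in the control, a log2 difference of -1.48 to -1.07). Col1a1, Cxcl12 and Pdgfrb were also below the control at each pressure, with 435 to 564, 129 to 139.8 and 47.3 to 54.3 FPKM under pressure, against 929.6 (Col1a1), 201 (Cxcl12) and 64.9 FPKM (Pdgfrb) in the control. Cd44 (14.5 to 18.3 FPKM under pressure and 18.5 FPKM in the control) and Col3a1 (203 to 223 and 245 FPKM) were below the control too. Pdgfra was above it (63.7 to 71.5 FPKM under pressure and 44.3 FPKM in the control). So was Col1a2 (463 to 574 FPKM under pressure and 454 FPKM in the control). All 11 stromal markers are given here, whether or not they passed the size rule. The surface markers Thy1, Eng and Nt5e were near the expression limit, and each was above the control at every pressure. They had at most 1.83, 2.43 and 1.28 FPKM under pressure, against 0.0181, 1.34 and 0.322 FPKM in the control. Thy1 passed the size rule at -80, -120 and -200 mmHg, with log2 differences of 1.30, 1.48 and 1.28. At -160 mmHg its difference was 0.97, and it had 1 to 91 reads per library. The part of these markers in the differences above was not tested.

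The genes whose 4 log2 differences from the control were closest to those of Nid2 and Lama4 were looked for among 7152 named genes averaging 5 FPKM or more. For Nid2 they were Fbxl16, Ism1 and Lncppara, at root mean square differences of 0.08, 0.10 and 0.12 on the log2 scale. For Lama4 they were Col6a3, Tk1 and Sh3bgrl3, at 0.07, 0.12 and 0.14. Ism1, which encodes a secreted protein, had 39.4 to 49.6 FPKM under pressure and 8.01 FPKM in the control. Col6a3, a chain of the microfibril collagen VI, had 3.82 to 4.57 FPKM under pressure and 25.9 FPKM in the control. The likeness rests on 4 differences that share 1 control library and is a description only.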

How the data were processed

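RNA-seq of 5 mouse stromal cell cultures, 1 per condition, was used. A single table with FPKM per gene was deposited by the authors. The submitters' processing notes list HISAT2, featureCounts 1.5.0-p3 and SAMtools and give rn6, a rat genome, as the build, although all gene IDs are mouse Ensembl IDs. Symbols, exon lengths and GRCm38 coordinates came from GENCODE M21, which holds 54349 of the 55401 IDs in the same version and 55141 in some version. FPKM times exon length gave whole reads in all 5 libraries for 54719 genes (98.8%, tolerance 0.001 reads), and 8 of the 10 genes described were among them. For Lama2 and Hspg2, deposited under another ID version, the 1 whole exon length within 10% of the annotated one that gave whole reads in all libraries was used (16605 and 14739 nt). Recovered reads served for intervals and read numbers, and no count model was run, since no condition had a replicate.

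Differences are on log2(FPKM + 1), over the 12113 genes averaging 1 FPKM or more. Genes were counted by a size rule (a log2 difference of at least 1) and no p-value is given. Intervals are exact Clopper-Pearson intervals at 95% and cover counting error only, since each condition has 1 library. Reads carried no molecular identifiers, so copies of the same molecule cannot be told apart and the intervals may be too narrow. The genes and lists were chosen with earlier results of these data known. From each list the text names up to 4 measured genes past the size rule in 1 direction at all 4 pressures; exceptions are stated. For the genes with the largest positive and negative mean difference, the 3 closest genes are named. Some listed genes are not reported here. The calling, read recovery and interval functions were tested on simulated reads. Those reads varied by counting only and used the same exon lengths, so variation between cultures was not covered. Alternatives were a pseudocount of 0.1 or 5 FPKM, a filter at 5 FPKM or none, scaling by the trimmed mean of log ratios, by the upper quartile, by quantiles or without the 50 most abundant genes, a 1.5-fold threshold, and a counting interval added to the size rule. Centring on the median of genes with at least 5000 nt of exon was added after the data were seen. Columns of other samples numbered 0. The software was Python 3.11.15 with scipy 1.17.1, pandas 2.3.3, numpy 2.4.6 and matplotlib 3.10.9.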

Additional observations from a re-analysis of the deposited data

How the results depend on the processing

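Nid2 on the higher side and Lama4, Nid1 and Agrn on the lower side passed the size rule at all 4 pressures under each of the 9 alternatives that change a gene's own value or the filter. Their log2 differences ran over 1.97 to 2.72 for Nid2, -2.72 to -1.70 for Lama4, -1.71 to -1.15 for Nid1 and -2.16 to -1.22 for Agrn. The 5 FPKM filter and the setting without one could not change these calls, since each gene averaged more than 5 FPKM. The number of genes higher at -80 and at -120 mmHg became 2 in place of 1 with a pseudocount of 0.1 FPKM and 2 with a 1.5-fold threshold. The median of the measured genes at -80, -120, -160 and -200 mmHg became -0.25, -0.36, -0.53 and -0.65 after scaling by the trimmed mean of log ratios, which brings the median of all genes close to 0, and -0.44, -0.48, -0.69 and -0.79 with the libraries centred on long genes. With no filter, which adds Lama2, it became -0.034 at -120 mmHg and -0.32 at -200 mmHg. The number of genes lower at each step from -80 to -200 mmHg became 3 in place of 5 under quantile normalization and 3 with the libraries centred on long genes; the cause was not tested. Of the alternatives run, 0 turned the sign of a difference past the size rule. Ratios within a library came out the same from recovered reads. This follows from how those reads were derived from FPKM and is no separate check. No paired analysis was possible because each condition has 1 library and the labels give no replicate numbers. Lama2 and Lama5 rest on 155 to 390 reads per library, which sets the width of their intervals.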
